A study of Mus musculus with 8 samples.

Results

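Rtl8a, Rtl8b, Rtl8c, Rtl5, Rtl6, Pnma1 and Pnma2 are 7 mouse genes that descend from the Gag gene of ancient retrotransposons, and each matched 1 row among the 15978 rows of the authors' deposited comparison. They were found by their RefSeq transcript names, Rtl8a, Rtl8b and Rtl8c being the genes once called Cxx1a, Cxx1b and Cxx1c. Rtl8a was already known to stand near the top of the table by p when the genes were picked, and the members were chosen by their deposited fold changes and p-values as well as by family, so these values are a description and test nothing about the group. The study compared brain RNA from 5 male mice that expressed a bacterial artificial chromosome with the human C9ORF72 gene and 500 G4C2 repeats (C9-BAC) and 3 male wild-type mice, all on an SJL/Bl6 background. The labels give no age, brain region or transgene line. The samples are called mice here by their separate numbers alone. Nothing else in the labels says that they are separate animals, so p-values may measure technical spread only. The authors' deposited table holds a single estimate for each gene, values for single mice are not analysed here, and the genotype that is the numerator of the fold change is not stated. Every sign is therefore as deposited.

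Retrotransposons of the Ty3/gypsy type encode Gag, the protein that builds their capsid, and mammals have kept several Gag genes for functions of their own. The Rtl genes (retrotransposon Gag-like) and the Pnma genes (named after the paraneoplastic Ma antigens) are such families, and many members are expressed in the brain. RTL8 proteins bind ubiquilin 2, a shuttle factor of protein degradation whose gene is mutated in some families with amyotrophic lateral sclerosis, the disease also caused by the C9ORF72 repeat. RTL5 and RTL6 have been described as microglial proteins of innate defence, and PNMA1 and PNMA2 are neuronal proteins that patients with paraneoplastic neurological syndromes can raise antibodies against. PNMA2 assembles into capsid-like particles.

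The coding sequences of Rtl8a and Rtl8b were identical at all 339 bases, and Rtl8c differed from both. The sequences are printed because they bear on how far the 3 rows can be read as separate measurements. The first 297 coding bases of Rtl8a and Rtl8b and the first 294 of Rtl8c run 5′ to 3′, from GENCODE vM21 transcripts on GRCm38 (mm10), and capitals mark the bases that are mismatched or unpaired in the alignment of Rtl8a (or Rtl8b) with Rtl8c.
Rtl8a and Rtl8b: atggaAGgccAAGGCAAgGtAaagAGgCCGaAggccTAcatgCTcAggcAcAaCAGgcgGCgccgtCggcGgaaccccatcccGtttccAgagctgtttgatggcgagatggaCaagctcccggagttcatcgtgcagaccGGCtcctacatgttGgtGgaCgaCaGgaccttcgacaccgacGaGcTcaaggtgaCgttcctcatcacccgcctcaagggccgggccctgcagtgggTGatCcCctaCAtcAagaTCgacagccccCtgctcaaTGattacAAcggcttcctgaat
Rtl8c: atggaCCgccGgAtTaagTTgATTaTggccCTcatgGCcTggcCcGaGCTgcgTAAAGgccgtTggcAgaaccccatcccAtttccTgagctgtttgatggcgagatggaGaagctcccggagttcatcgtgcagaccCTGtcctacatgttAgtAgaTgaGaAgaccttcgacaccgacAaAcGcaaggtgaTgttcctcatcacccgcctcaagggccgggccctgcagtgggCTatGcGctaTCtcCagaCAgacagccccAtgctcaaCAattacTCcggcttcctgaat
The printed stretches lie on chromosome X, at 53643325 to 53643621 (Rtl8a) and 53670002 to 53670298 (Rtl8b) on the minus strand and at 53608046 to 53608339 (Rtl8c) on the plus strand. Aligned with Rtl8c, 276 of 342 columns (80.7%) of the Rtl8a coding sequence were identical, 57 were mismatched and 9 were gapped. Differences were densest at the start: 28 of the 63 Rtl8a coding bases that differ from Rtl8c or have no partner there fall in the first 60 bases.

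Identity between Rtl8a and Rtl8b went beyond the coding part. After the stop codon, 775 of 792 alignment columns (97.9%) were identical, with 5 mismatches and 12 gapped columns. The gapped columns lie past the last base of the Rtl8b model, which has 780 bases after the stop codon against 792 for Rtl8a. They are no observed difference in sequence. Ahead of the start codon, the 61 bases of the Rtl8a transcript all matched Rtl8b, which starts 49 bases further upstream. Of the 1146 windows of 50 bases in the Rtl8a transcript, 946 (82.5%) also occurred in Rtl8b and 200 in no other annotated transcript on the same strand. Of the 1183 windows of Rtl8b, 946 (80.0%) occurred in Rtl8a and 237 nowhere else. Windows that start in the 49 Rtl8b bases ahead of the Rtl8a model are among the 237, and windows past the Rtl8b end are among the 200. The vM21 models of Rtl8a and Rtl8b span 1195 and 1232 bases and the RefSeq genes 1276 and 1273. Unmatched windows at the ends may thus come from the length of the models. None of the 290 windows inside the coding sequence told Rtl8a from Rtl8b. Rtl8c shared 6 of its 352 windows (1.7%) with the other two, all in a run of 55 bases across the end of its coding sequence. The vM21 model of Rtl8c spans 401 bases and the RefSeq gene 1214, so windows of its longer end were not examined.

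The 4 other members had no such relatives. No 50-base window of Rtl5, Rtl6, Pnma1 or Pnma2 occurred in a transcript of another gene on the same strand. With both strands searched, 336 of 2310 Pnma1 windows (14.5%) matched Dnal1, a dynein light chain gene on the opposite strand. The vM21 models of Pnma1 and Dnal1 share 384 exon bases, whereas the RefSeq bounds, the annotation by which the deposited rows are named, lie 2613 bases apart and share 0. The Rtl8a windows with a match elsewhere then numbered 974, because Gm14597, a gene model whose bounds on the opposite strand include Rtl8c, was added. The libraries were strand-specific per the labels, but no source used here says whether reads were counted by strand, so the Pnma1 row is uncertain in that stretch if the vM21 models hold. Nor does one say how reads that fit both Rtl8a and Rtl8b were assigned, which makes those 2 rows uncertain. Outside the Rtl8 genes, the closest pair of coding sequences was Pnma1 and Pnma2 with 55.8% identical columns.

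The Rtl8 genes form a cluster of 62516 bases on chromosome X. By RefSeq bounds on GRCm38.p6, Rtl8c (NM_028375) lies at 53607922 to 53609135, Rtl8a (NM_024170) at 53642488 to 53643763 and Rtl8b (NM_001018063) at 53669165 to 53670437. Gaps of 33352 and 25401 bases separate them. Rtl5 (NM_001278534) is also on chromosome X, at 102066542 to 102071307 on the minus strand, inside the gene bounds of Nhsl2 on the plus strand and without a shared exon base. Rtl6 (NM_177630) lies on chromosome 15 at 84553398 to 84557823, Pnma1 (NM_027438) on chromosome 12 at 84146131 to 84148489 and Pnma2 (NM_175498) on chromosome 14 at 66901589 to 66920063. In the transcripts used, 5 of the 7 genes consist of 1 exon, while Rtl5 has 2 and Pnma2 has 3, and in each the coding sequence lies within 1 exon. In the 250 bases upstream of the start, in RefSeq sequence of GRCm38.p6, the longest exact shared run was 10 bases for Rtl8a with Rtl8b, 9 for Rtl8a with Rtl8c and 44 for Rtl8b with Rtl8c. The run length that unrelated sequences would share was not computed, so the runs of 10 and 9 bases are not read as likeness.

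All 7 genes were expressed in these brains, and the Rtl8 genes were the most abundant for their length. The mean normalized count (size-factor scaled counts averaged over all mice by the authors) was 655.3 for Rtl8b, 572.6 for Rtl8c and 527.9 for Rtl8a in the authors' deposited table. It was 697.2 for Pnma2, 646.1 for Rtl6, 189.9 for Rtl5 and 58.4 for Pnma1, against a median of 170.8 over all rows. Per kilobase of transcript the mean normalized count was 514.8 for Rtl8b, 471.6 for Rtl8c and 413.7 for Rtl8a, so the level of the highest was 1.24 times that of the lowest. How reads that fit both Rtl8a and Rtl8b were assigned is not stated, so the levels of these genes and ratios that use them are uncertain. The level per kilobase was 146.0 for Rtl6, 126.3 for Pnma2, 43.9 for Rtl5 and 24.8 for Pnma1, 20.8-fold from top to bottom of the 7. The spread over mice is not analysed here, so neighbours in this order, Rtl6 and Pnma2 among them, cannot be said to differ. In tissue RNA, fewer cells of a type and less RNA per cell cannot be told apart.

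No member passed between C9-BAC and wild-type brain, and no row of the table did: 0 of 15944 rows with a p (0%) had an adjusted p under 0.05 in the DESeq2 comparison, and 239 (1.5%) had an unadjusted p under 0.05. A share of 1.5% lies below the 0.05 that calibrated p-values would give without any difference, so the deposited p-values ran large. All 7 members had a DESeq2 adjusted p of 0.9997. Deposited log2 fold changes were positive for 6 members and negative for 1, while 47.5% of all tested rows were positive, and the median of the members was 0.09 against -0.00 (-0.0043) over all tested rows. Of the members, 1 (Rtl8a) had an unadjusted p under 0.05 with a positive value and 0 with a negative one, where 0.659% and 0.84% of all tested rows did. Standard errors in the table did not exceed 0.11 and were smallest for rare transcripts (median 0.0516 under a mean normalized count of 10), so a small one is not read as precision. Deposited log2 fold changes ran from -0.32 to 0.35 over all rows. The file headers do not say whether they were pulled toward 0, so their sizes, those of rare transcripts above all, may be too small.

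Rtl8a had the largest value of the group, a log2 fold change of 0.26 with its standard error (SE) at 0.08, 1.20-fold, in the authors' deposited table. Its Wald statistic, the fold change over its standard error, was 3.12 in the authors' deposited table (DESeq2 p = 0.00183, adjusted p = 0.9997), the 7th smallest p there, and these are the values for which the group was put together. A statistic of 4.66 would have been needed for a single row to pass. The standard error of Rtl8a, 0.0845, stood at percentile 2.5 of the 200 rows nearest to it in abundance, whose median was 0.101.

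Rtl8b, with the same coding sequence, had a fold change (log2) of 0.09 (SE 0.10) in the authors' deposited table (DESeq2 p = 0.347, adjusted p = 0.9997). Rtl8c had a fold change (log2) of 0.02 (SE 0.09) in the authors' deposited table (DESeq2 p = 0.828, adjusted p = 0.9997). The deposited value of Rtl8a was thus above that of Rtl8b by 0.17 and above that of Rtl8c by 0.24 on the log2 scale. Those gaps were not tested, since a test needs the values of single mice, and with 82.5% of its windows in common with Rtl8b the Rtl8a row is not independent of how shared reads were split. The part of read sharing in the Rtl8a value was not tested.

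Rtl5 and Rtl6, the members described in microglia, had positive values of similar size, each within about 1 standard error of 0. Rtl6 had a fold change (log2) of 0.09 (SE 0.09, DESeq2 p = 0.300, adjusted p = 0.9997) and Rtl5 one of 0.09 (SE 0.10, DESeq2 p = 0.412, adjusted p = 0.9997) in the authors' deposited table. Microglial marker genes had 2 positive and 3 negative values out of 5, with a median of -0.01 and 0 at an unadjusted p under 0.05. The Ma antigen genes had opposite signs. Pnma1, the least abundant member, had a fold change (log2) of 0.10 (SE 0.11, DESeq2 p = 0.345, adjusted p = 0.9997), and Pnma2, the only member below 0, one of -0.07 (SE 0.10, DESeq2 p = 0.470, adjusted p = 0.9997) in the authors' deposited table. None of these 4 values was more than 1.04 standard errors from 0.

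**Figure D1:**
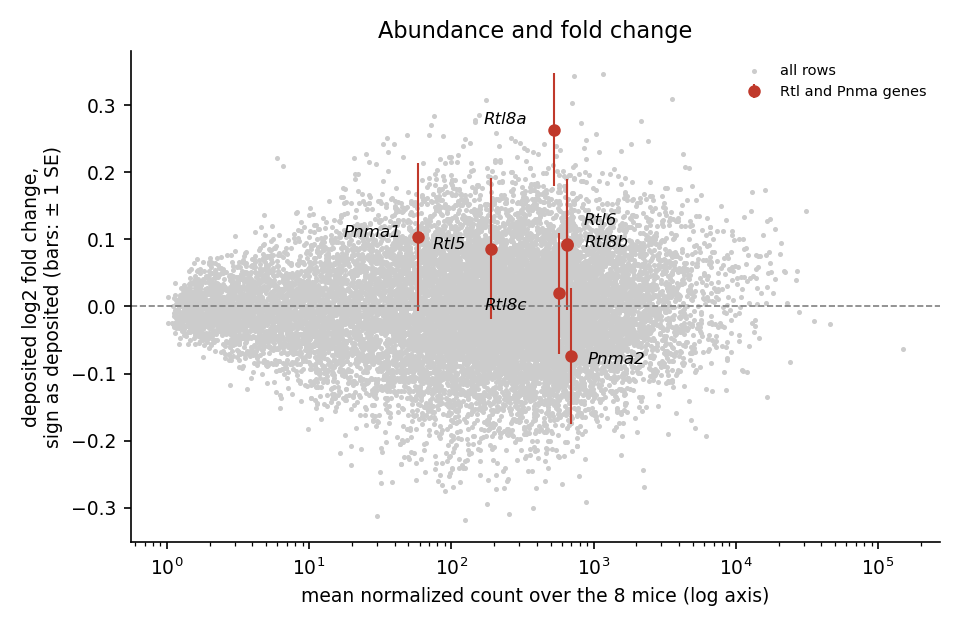
Deposited log2 fold change (vertical axis, sign as deposited, bars ± 1 standard error) against the mean normalized count over the 8 mice (log axis) for all rows in grey and the 7 Rtl and Pnma genes in red. Rtl8a sits at 0.26 near the upper edge of the rows of its abundance, and the other members lie between -0.07 and 0.10, within the bulk.

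Most other genes of these families had negative values as deposited. Among the other Rtl genes, 5 of 7 listed genes were matched, with 1 positive and 4 negative values, a median log2 fold change of -0.06 and 0 at an unadjusted p under 0.05. Peg10, an imprinted gene needed for the placenta whose protein is also controlled by ubiquilin 2, had a fold change (log2) of -0.19 (SE 0.10, DESeq2 p = 0.0603, adjusted p = 0.9997) in the authors' deposited table, where its mean normalized count was 219.2. Rtl1, another imprinted placental gene, had -0.07 at a mean normalized count of 9.57, Rtl4 had -0.06 at 28.9, Ldoc1 (also called Rtl7) -0.03 at 7.30, and Rtl9 0.05 at 16.9.

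The other Pnma relatives gave 2 positive and 5 negative values for 7 of 9 listed genes, with a median log2 fold change of -0.03 and 1 gene at an unadjusted p under 0.05. That gene was Zcchc12, a brain-enriched coactivator of bone morphogenetic protein signalling, with a log2 fold change of -0.23 (SE 0.11, DESeq2 p = 0.0395, adjusted p = 0.9997) in the authors' deposited table, where its mean normalized count was 410.1. Its relative Zcchc18, at a mean normalized count of 1879 the most abundant of the list, had a fold change (log2) of 0.02, and Pnmal1 (Pnma8a) also had 0.02. The apoptosis gene Moap1 (Pnma4) had -0.06, Pnma3 -0.04, Ccdc8 -0.03 and Pnma5 -0.01. Over the 12 Rtl and Pnma genes outside the 7, 3 values were positive and 9 negative, so that 9 of all 19 family genes were positive, a share near the 47.5% of the whole table. The split between the 7 and the 12 is partly a product of how the 7 were chosen and was not tested.

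**Figure D2:**
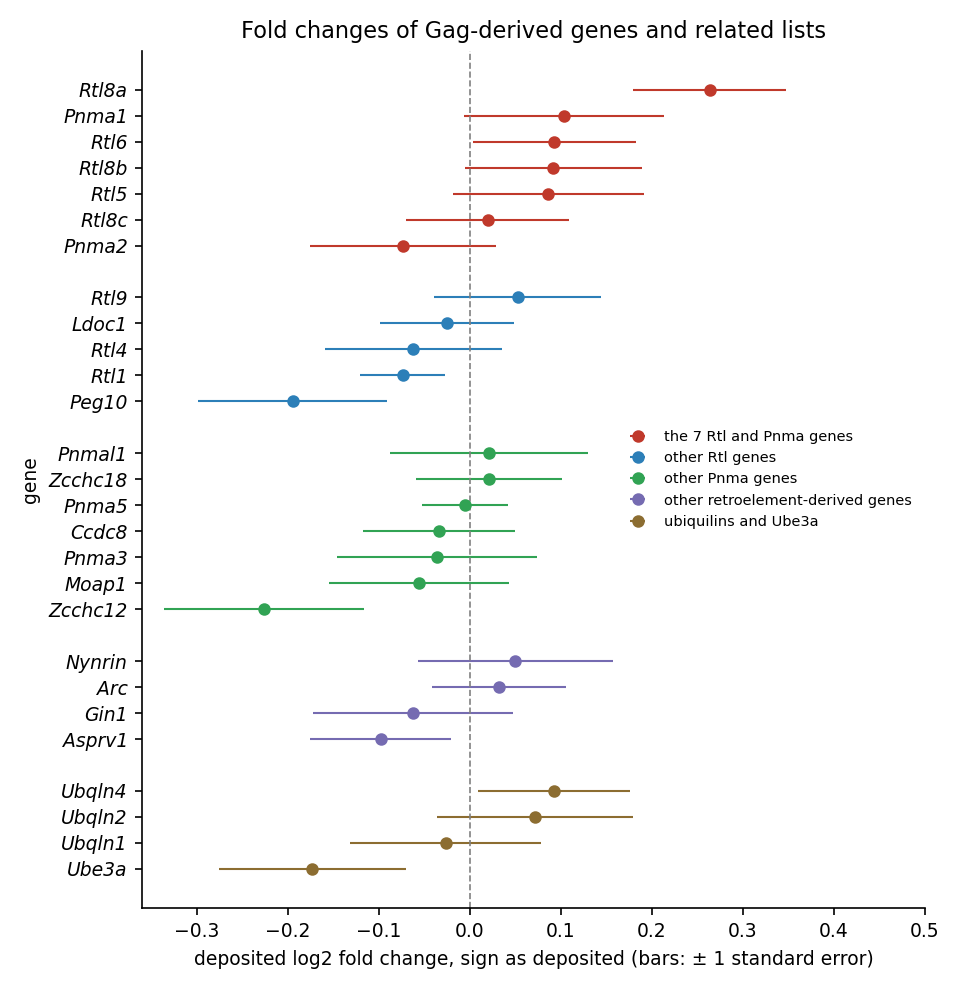
Deposited log2 fold changes (horizontal axis, sign as deposited, bars ± 1 standard error) of the 7 Rtl and Pnma genes, 5 other Rtl genes, 7 other Pnma genes, 4 other retroelement-derived genes and 4 ubiquilin and Ube3a genes. Values of the 7 run from -0.07 (Pnma2) to 0.26 (Rtl8a), and those of the other Rtl and Pnma genes from -0.23 (Zcchc12) to 0.05 (Rtl9).

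Further genes of retroelement origin and partners of RTL8 and PEG10 included no gene at an unadjusted p under 0.05. Arc, a synaptic plasticity gene whose protein forms Gag-like capsids, had a fold change (log2) of 0.03 in the authors' deposited table, at 1911 normalized counts on average, and Nynrin had 0.05. The integrase-derived gene Gin1 had -0.06, and Asprv1, the gene of a skin protease of retroviral type, had -0.10. Of the ubiquilins, Ubqln2 had a fold change (log2) of 0.07 (SE 0.11), Ubqln4 one of 0.09 (SE 0.08) and Ubqln1 one of -0.03 (SE 0.11). Ube3a, the imprinted ubiquitin ligase gene of Angelman syndrome, had -0.17 (SE 0.10) in the authors' deposited table (DESeq2 p = 0.0912, adjusted p = 0.9997).

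Genes of the machinery that silences retroelements by histone and DNA methylation had mostly negative values as deposited. Of 24 listed genes, all matched, 7 were positive and 17 negative, against 52.5% negative over all tested rows, with a median log2 fold change of -0.05 and 0 at an unadjusted p under 0.05. The smallest p-values belonged to Uhrf1, which recruits the maintenance DNA methyltransferase (log2 fold change -0.14, standard error 0.09), to the heterochromatin protein gene Cbx3 (-0.13, standard error 0.10), to Pphln1 of the silencing complex HUSH (-0.13, standard error 0.11) and to the HUSH partner Morc2a (-0.09, standard error 0.09) in the authors' deposited table. The median transcript GC content of this list was 48.6%, below the 50.3% of all rows. With GC content and length taken off, 6 of the 24 had a positive statistic, against 47.2% of all tested rows with a GC value. The part of GC content in the values of this list was not tested further.

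The statistic of a row went with its GC content across the table, and 6 of the 7 members were richer in GC than the median row. Positive fold changes made up 23.0% of the fifth of rows with the lowest transcript GC content and 66.1% of the fifth with the highest. Spearman's rho of GC content and Wald statistic was 0.373 over the 15869 rows with a GC value, which are genes and no replicates. The part of GC content in the members' values was not tested beyond the adjustment below. Transcript GC content was 59.7% for Rtl8a and Rtl8b, 58.1% for Rtl8c, 57.3% for Rtl6, 53.9% for Rtl5, 53.3% for Pnma1 and 47.4% for Pnma2, the only member with a negative fold change. Taking off the linear trend on GC content and log10 length lowered the Wald statistic of Rtl8a from 3.12 to 2.68, of Rtl8b from 0.94 to 0.51 and of Rtl6 from 1.04 to 0.72. Rtl8c went from 0.22 to -0.15, and Pnma2 from -0.72 to -0.59. For Rtl8c the GC content and length were those of its vM21 model of 401 bases, against 1214 for the RefSeq gene. Its sign after the adjustment, and with it the count of positive members, rests on that model. With this adjustment 5 of 7 members were above 0, against 47.2% of all rows with a GC value, and Rtl8a remained the only one at an unadjusted p under 0.05, where 1.02% of all such rows were.

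**Figure D3:**
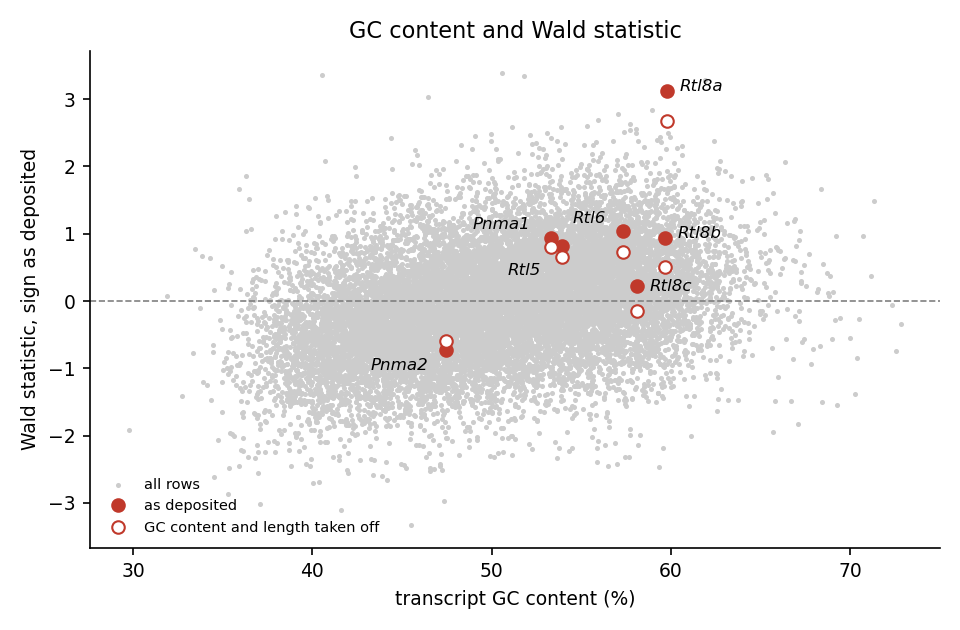
Wald statistic (vertical axis, sign as deposited) against transcript GC content in percent for all rows in grey and the 7 Rtl and Pnma genes in red, filled as deposited and open with the trend on GC content and length taken off. Rtl8a stays above the other members at 2.68, and Rtl8c moves from 0.22 to -0.15 by the GC content and length of its 401-base vM21 model.

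No row next to a member in the genome, other members aside, had a deposited value as far from 0 as that of Rtl8a. Mospd1, on one side of the Rtl8 cluster, had a fold change (log2) of -0.08 (DESeq2 p = 0.471, adjusted p = 0.9997) and Fam122b beyond it -0.03, and on the other side the noncoding RNA AW822252 had 0.02 and Ct55 had 0.05 in the authors' deposited table. Over 560 chromosome X rows that are no member, 213 were positive and 347 negative, with a median of -0.02. The median GC content of these rows was 46.2%, and with GC content and length taken off 257 had a positive statistic and the median Wald statistic went from -0.22 to -0.05. Around Rtl5, Nhsl2 had 0.02, the glycosyltransferase gene Ogt -0.07, Pin4 -0.08 and Ercc6l 0.02. Next to Rtl6, Shisal1 had -0.21 (SE 0.10) in the authors' deposited table (DESeq2 p = 0.0284, adjusted p = 0.9997), the opposite sign to Rtl6, and Parvg, Prr5 and Phf21b had 0.04, -0.01 and -0.00 (-0.0046). Around Pnma1, Mideas had -0.13, Acot6 -0.06, Dnal1 0.02 and Ptgr2 -0.01. Around Pnma2, Adra1a had -0.21, Dpysl2, whose RefSeq bounds overlap Pnma2 by 9453 bases on the opposite strand, 0.03, Ppp2r2a -0.03 and Bnip3l -0.01.

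Neuronal and astrocyte markers were abundant, while the oligodendrocyte marker Mog was below the muscle marker Acta1. Neuronal markers had mean normalized counts from 1806 to 13868, astrocyte markers from 1072 to 45839 and oligodendrocyte markers from 92.7 (Mog) to 9162. Microglial markers ran from 153.5 (Tmem119) to 921.5. Mog and Tmem119 were under the 170.8 of the median row, while choroid plexus markers reached 35.7 and the 2 matched liver genes 33.2, a value of Ttr, which the choroid plexus list also holds. Among muscle markers Acta1 reached 103.4, above Mog but below all microglial and all other oligodendrocyte markers, of which Mobp was lowest at 862.6. Myh4 had 16.2 and Mylpf 2.75, and Ckm and Tnnt3 were not matched. The haemoglobin gene Hba-a2, which has no deposited p, had 1183. Deposited fold changes were positive for 5 of 6 neuronal, 0 of 5 astrocyte and 1 of 5 oligodendrocyte markers, with medians of 0.03, -0.03 and -0.03 and 0 at an unadjusted p under 0.05 in each list. The 3 tested muscle markers and the 2 tested blood markers were all positive, as were most members and 47.5% of all tested rows. Their medians were 0.09 and 0.06, with 0 at an unadjusted p under 0.05. The part of cell makeup in the members' values was not tested.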

How the data were processed

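Strand-specific libraries were made from Trizol-extracted brain RNA without poly(A) selection, per the labels' protocols. Reads were handled with Trimmomatic, Bowtie2, DESeq and DESeq2 on build mm10, in an order not stated, per the submitters' processing notes. Tool versions, the counter of reads with its strand setting and annotation, filters and the handling of multiply mapped reads were not stated there or in the labels. Per the file headers, the authors deposited a mean normalized count (a signal), a log2 fold change with its standard error on the log2 scale, a Wald statistic (a score), and p-values, raw and adjusted, for 15978 rows. Depth per sample is unknown. The mean normalized counts sum to 9226666.

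Gene symbols came from a RefSeq GRCm38.p6 table (15857 rows) or GENCODE vM21 (73), leaving 48 rows without one. All 7 members matched. Their lists of relatives, partners and markers were chosen with earlier results of these data known. All members, all matched relatives and partners, 4 silencing genes of smallest p and 2 rows on either side of each member are named. The authors' adjusted p is the main result and 0.05 the threshold. As alternatives the adjustment ran over rows whose mean normalized count reached 10, over all rows with missing p-values filled in, after the median fold change was taken off, and after a linear trend on GC content and log10 length was taken off (15869 rows had a GC value). Level per kilobase used RefSeq gene length for 1-exon genes and vM21 transcript length otherwise. Windows of 50 bases were matched exactly against all vM21 transcripts. Coding sequences were aligned globally with Biopython 1.88 (match 1, mismatch -1, gap open -5, gap extension -1). A planned comparison of protein sequences was not run, and coding-sequence identity stands in its place. Promoters were also searched for a few motifs chosen after the sequences had been seen, and no result of that search is given because the data do not bear on promoters. Scripts were tested on simulated data.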

Additional observations from a re-analysis of the deposited data

How the results depend on the processing

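No row passed at an adjusted p of 0.05 by the authors' DESeq2 values or under any of the 5 alternatives run on them: rows whose mean normalized count reached 10 (223 rows at an unadjusted p under 0.05), rows without a p kept in (240), GC content and length taken off (162), the median fold change taken off (242), and GC content and length taken off within rows that reached 10 (135), the last chosen after the data were seen. The deposited table had 239. The members at an unadjusted p under 0.05 numbered 1 as deposited and in the 3 alternatives run on that count. Positive members numbered 6 as deposited and with the median taken off, and 5 in both GC fits. With GC content and length taken off over all rows, the Wald statistic of Rtl8c turned from 0.22 to -0.15. That turn rests on its vM21 model of 401 bases, which is shorter than the RefSeq gene. The share of windows common to the Rtl8 genes depended on their length, by construction. For Rtl8a it was 86.4% at 36 bases, 77.6% at 75 and 72.5% at 100. For Rtl8b it was 83.7%, 75.1% and 70.2%, and for Rtl8c 7.1%, 0% and 0%. Searching both strands left these shares as they were. No paired analysis was possible because the table holds no values per mouse and the genotypes share no replicate number; leaving out a mouse was not possible without those values. Depth per mouse is unknown, so the size of difference that could have been detected was not computed.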
